A study of Mus musculus with 12 samples.

Results

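The collagen gene family was followed in the myocardium of 12 mice. Members were the named probe sets, each a set of array probes for 1 gene, whose platform symbol is Col followed by a type number, a and a chain number. That gave 42 genes of the 19505 genes measured, with 1 probe set for each collagen gene. They were divided into 11 fibrillar chains, 8 basement membrane chains, 6 type VI chains and 17 other chains. The DM_AngIV group held 4 mice made diabetic with intraperitoneal streptozotocin, which destroys pancreatic beta cells, and infused with angiotensin IV, a peptide fragment of angiotensin, at a dose of 2.88 mg/kg/day that began in week 8 and ended in week 24. The DM group held 4 mice made diabetic in the same way, and the NC group held 4 mice given vehicle in place of streptozotocin. Injections ran for 5 days, and diabetic mice were kept when fasting glucose reached 16.7 mM or more 2 weeks later. The labels give 6 months for all groups without saying whether this is age or time since injection, and they do not give strain, sex or an infusion of vehicle in the groups without angiotensin IV.

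Collagens are built from chains that fold in triplets into a triple helix in the endoplasmic reticulum, are secreted, trimmed and then assembled outside the cell. In the heart, fibroblasts make most of the fibrillar types I and III, which form the fibres between muscle cells. Type IV forms the sheet-like network of basement membranes around cardiomyocytes and vessels, and type VI forms beaded microfibrils that link this network to the fibres. Excess fibrillar collagen is the material of cardiac fibrosis, one of the themes of the study. Transcript levels, which these arrays measure, are not the amount of collagen deposited.

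Each value is an expression level on the log2 scale, so a difference of 1 is a doubling, and levels are compared only within a gene across arrays. Array medians lay between 4.12 and 4.19, between 42.8% and 43.3% of genes were above background on each array, and r across genes was 0.977 to 0.990 for any pair of arrays. Background is the 95th percentile, 4.96, of 246 control probe sets without a gene. The 8 ventricular cardiomyocyte markers were above it and averaged 11.38 in DM_AngIV, 11.33 in DM and 11.39 in NC arrays. Myl7, a myosin light chain of atrial muscle, was above background in 5 arrays, DM replicates 1, 2 and 4 and NC replicates 1 and 3, and in no DM_AngIV array, so atrial signal differed between the groups. Results are therefore also given without those 5 arrays, which leaves 4 DM_AngIV, 1 DM and 2 NC mice, and with atrial signal as a covariate over all 12 arrays.

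Of the 42 collagen genes, 19 were above background on all 12 arrays, 7 on some and 16 on none. The 26 genes above background on at least 1 array are 61.9% of the family, against 50.3% of all genes. Among fibrillar chains 4 of 11 were above background, namely Col1a1, Col1a2, Col3a1 and Col11a2. The other fibrillar chains, Col2a1, Col5a1, Col5a2, Col5a3, Col11a1, Col24a1 and Col27a1, were not above it on any array. The basement membrane chains above background on at least 1 array were Col4a1, Col4a2, Col4a4, Col4a6, Col15a1 and Col18a1, while Col4a3 and Col4a5 were not. Of the type VI chains, Col6a1, Col6a2 and Col6a3 were above background on every array, Col6a6 on 1 array, and Col6a4 and Col6a5 on none. In the remaining class 12 of 17 chains were above background on at least 1 array, with Col10a1, Col14a1, Col17a1, Col19a1 and Col26a1 below it throughout.

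Col3a1, the type III collagen gene, and Col6a2, a type VI chain, fell in DM_AngIV hearts against NC hearts, and no collagen was called higher. DM_AngIV and NC mice differed in both streptozotocin diabetes and angiotensin IV, which this comparison cannot tell apart. In all, 33 of 42 collagens had a negative difference there. The limma test called 198 of all 19505 genes, 1.02%, in that comparison, of which 56 were lower, 0.287%, and it called 2 of 42 collagens, both lower. The median log2 fold change of the 42 genes was −0.12, against −0.01 over all genes, and the negative share over all genes was 51.5%. At an unadjusted p below 0.05, 11 collagens were lower and 0 higher, while 6.53% of all genes were lower and 8.11% higher. In 6 collagens every DM_AngIV array was below every NC array, a pattern found in 4.2% of all genes, and 0 collagens had the opposite pattern, found in 5.63% of all genes. These were Col3a1, Col11a2, Col15a1, Col6a1 and Col6a2, with Col5a2, which was not above background. The separation was narrow in Col11a2, with the highest DM_AngIV array at 6.338 and the lowest NC array at 6.351. In Col5a2 these were at 4.108 and 4.118. The plot of values by array shows the 9 collagen genes that the results turn on.

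**Figure D1:**
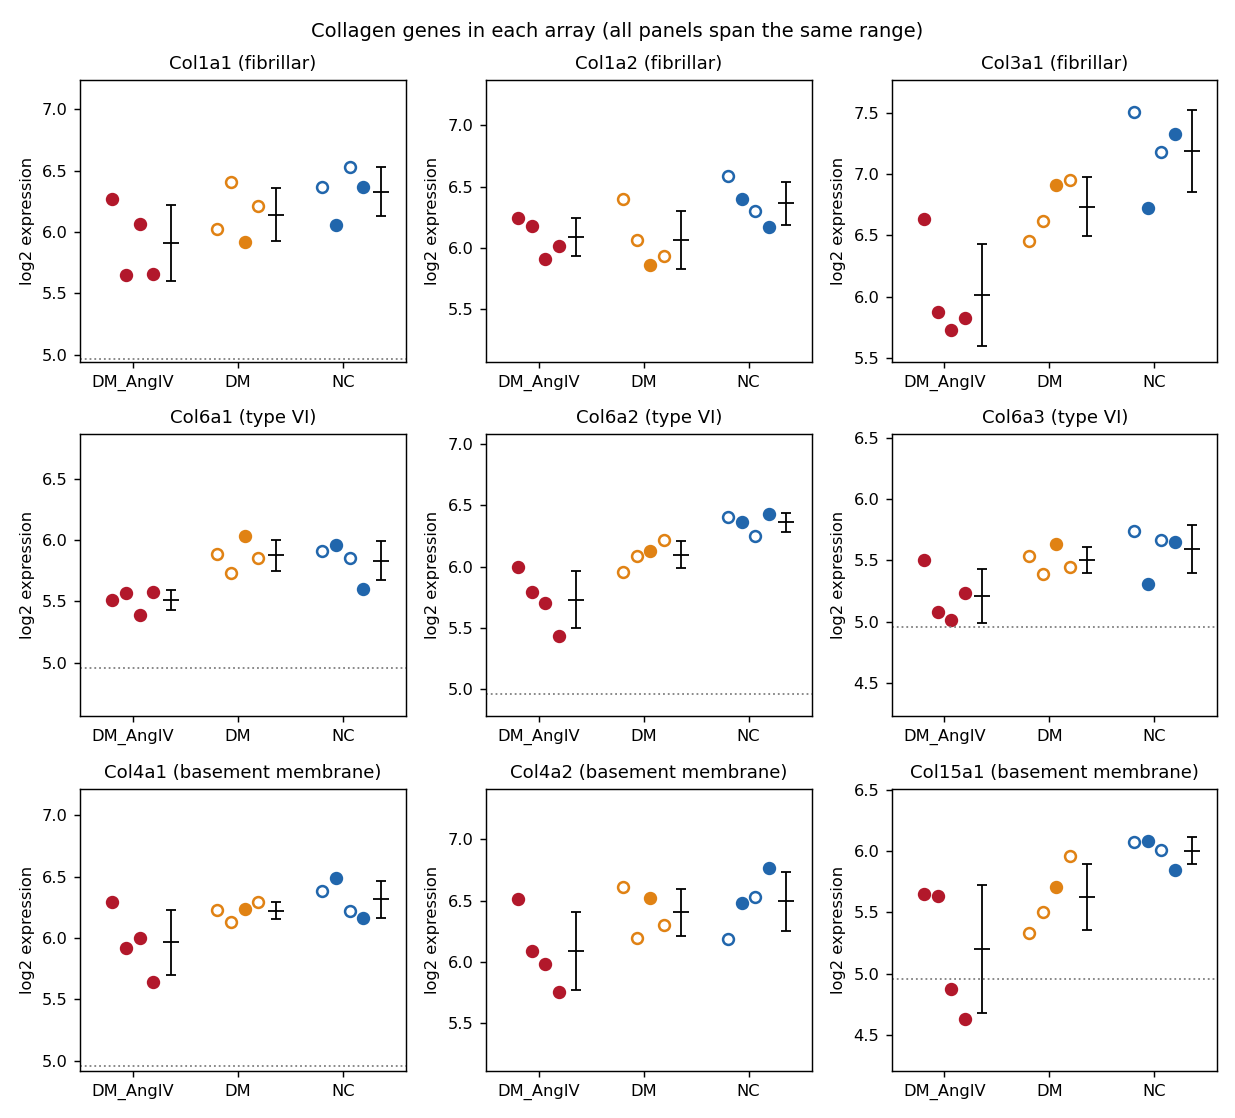
Log2 expression (vertical axis) of 9 collagen genes in each array, with DM_AngIV, DM and NC from left to right, the mean and SD of the 4 arrays beside each group, and the background level as a dotted line where it falls in range. Open symbols mark the 5 arrays in which Myl7 was above background. All DM_AngIV arrays lie below all NC arrays for Col3a1, Col6a1, Col6a2 and Col15a1, and the groups overlap for Col1a1, Col1a2, Col6a3, Col4a1 and Col4a2.

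The fibrillar chain called in DM_AngIV against NC was Col3a1, the only chain of type III collagen, which forms thin fibrils together with type I. Col3a1 stood at 6.63, 5.88, 5.73 and 5.83 in the DM_AngIV arrays, at 6.45, 6.62, 6.91 and 6.95 in the DM arrays, and at 7.51, 6.72, 7.18 and 7.33 in the NC arrays (replicates 1 to 4). Every DM_AngIV array was below every NC array, 3 of 4 DM_AngIV arrays were also below every DM array, and replicate 1 of DM_AngIV stood apart from the other 3. Means were 6.02 ± 0.41 in DM_AngIV, 6.73 ± 0.24 in DM and 7.19 ± 0.33 in NC (SD, n = 4 each). In DM_AngIV against NC the log2 fold change was −1.17 ± 0.20 (SE, limma adjusted p = 0.0128), which is 44.4% of the NC level. The call held when any 1 array was left out, with differences between −1.38 and −1.06. Without the 5 arrays with atrial signal the value was −1.01 and the call was lost (limma adjusted p = 0.175, against a range of 0.00409 to 0.175 over the 23 alternatives). With atrial signal as a covariate over all 12 arrays it was −1.12 and called (limma adjusted p = 0.0460).

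Col3a1 was between the other groups in DM hearts. Its log2 fold change was −0.72 ± 0.20 in DM_AngIV against DM (limma adjusted p = 0.511) and −0.45 ± 0.20 in DM against NC (limma adjusted p = 0.525), neither past the threshold. The 3 comparisons share arrays, so these values are not independent of the one against NC. The RefSeq promoter window of Col3a1 (GRCm38.p6, chr1:45311288-45311587, plus strand, 250 bases before to 50 after the start) is shown because it carries the gene with the largest difference of the family. Its GC content is 37.7%, and only 6.63% of all promoter windows are lower. Capitals mark matches on either strand to TATAAA and CAGACA.
Col3a1: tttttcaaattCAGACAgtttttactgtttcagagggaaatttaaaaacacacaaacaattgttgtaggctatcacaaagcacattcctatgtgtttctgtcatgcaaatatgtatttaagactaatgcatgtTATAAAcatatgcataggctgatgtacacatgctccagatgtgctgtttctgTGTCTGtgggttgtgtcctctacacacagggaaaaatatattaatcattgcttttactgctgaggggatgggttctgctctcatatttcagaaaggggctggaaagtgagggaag

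Type I collagen, the main component of fibres in the heart, is made of chains from Col1a1 and Col1a2. Col1a1 was at 6.27, 5.65, 6.06 and 5.66 in DM_AngIV arrays, 6.03, 6.41, 5.92 and 6.21 in DM arrays, and 6.36, 6.06, 6.53 and 6.36 in NC arrays. The groups overlap, and DM_AngIV replicates 2 and 4 are the lowest of the 12 arrays. The log2 fold change of Col1a1 was −0.42 in DM_AngIV against NC (95% confidence interval −0.75 to −0.09, limma adjusted p = 0.226), −0.23 in DM_AngIV against DM (adjusted p = 0.767) and −0.19 in DM against NC (adjusted p = 0.780). Without the arrays with atrial signal the Col1a1 value was −0.30 against NC and −0.01 against DM, with 1 DM array left. With the atrial covariate it was −0.28 against NC and −0.05 against DM. Col1a2 was at 6.25, 6.18, 5.91 and 6.02 in DM_AngIV arrays, 6.40, 6.06, 5.86 and 5.94 in DM arrays, and 6.58, 6.40, 6.30 and 6.17 in NC arrays. Col1a2 did not order the groups as Col3a1 did, since its DM_AngIV and DM values were alike on average, at 6.09 ± 0.15 in DM_AngIV and 6.07 ± 0.24 in DM (SD, n = 4 each). Its difference between them was 0.02 (95% confidence interval −0.26 to 0.31), and it was −0.30 in DM against NC (limma adjusted p = 0.525) and −0.28 in DM_AngIV against NC (adjusted p = 0.361). In DM_AngIV against DM the Col1a2 value was 0.23 without the arrays with atrial signal and 0.21 with the atrial covariate. Col11a2, a chain of the cartilage collagen type XI, averaged 6.28 ± 0.09 in DM_AngIV, 6.31 ± 0.20 in DM and 6.46 ± 0.12 in NC arrays, and its difference of −0.18 in DM_AngIV against NC was not called (limma adjusted p = 0.504).

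Type VI collagen is a heterotrimer of the Col6a1, Col6a2 and Col6a3 chains, and mutations in these genes cause muscular dystrophies in humans. Col6a2 was at 6.00, 5.79, 5.71 and 5.43 in DM_AngIV arrays, 5.96, 6.09, 6.13 and 6.22 in DM arrays, and 6.40, 6.37, 6.25 and 6.43 in NC arrays. Every DM_AngIV and every DM array was below every NC array, while DM_AngIV replicate 1 lay inside the DM range. Col6a2 fell in DM_AngIV against NC, by 0.63 on the log2 scale (SE 0.12, limma adjusted p = 0.0207), to 64.6% of the NC level. That call was lost without NC replicate 1 (−0.62, adjusted p = 0.0598), NC replicate 2 (−0.63, 0.0588), NC replicate 4 (−0.61, 0.0589), DM_AngIV replicate 3 (−0.62, 0.0653) or DM_AngIV replicate 4 (−0.53, 0.0669), with the replicate block (−0.63, 0.0519), and without the arrays with atrial signal (−0.67, 0.160). With the atrial covariate Col6a2 was called (−0.66, limma adjusted p = 0.0462). Its difference was −0.37 in DM_AngIV against DM (limma adjusted p = 0.600) and −0.26 in DM against NC (adjusted p = 0.529).

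Col6a1 separated the angiotensin IV group from both others without passing the adjusted threshold. It was at 5.51, 5.57, 5.39 and 5.58 in DM_AngIV arrays, 5.88, 5.73, 6.03 and 5.86 in DM arrays, and 5.91, 5.96, 5.85 and 5.60 in NC arrays. All DM_AngIV arrays lay below all others, while DM and NC overlapped. The gap to NC was narrow, with the highest DM_AngIV array at 5.576 and the lowest NC array at 5.604. Of all genes, 4.2% had every DM_AngIV array below every NC array, and 2.2% had every DM_AngIV array below every DM array. The log2 fold change was −0.36 ± 0.11 in DM_AngIV against DM (SE, limma adjusted p = 0.521), −0.32 ± 0.11 in DM_AngIV against NC (adjusted p = 0.175) and 0.04 ± 0.11 in DM against NC (adjusted p = 0.956). Col6a3, the largest of these chains, was at 5.51, 5.08, 5.01 and 5.23 in DM_AngIV arrays, 5.53, 5.39, 5.63 and 5.45 in DM arrays, and 5.74, 5.30, 5.67 and 5.65 in NC arrays. The groups overlapped, and Col6a3 had −0.29 in DM_AngIV against DM (limma adjusted p = 0.649), −0.09 in DM against NC (0.897) and −0.38 in DM_AngIV against NC (0.173). Col6a6, above background on 1 array, averaged 4.62 ± 0.32 in DM_AngIV, 4.31 ± 0.32 in DM and 4.53 ± 0.08 in NC arrays.

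Col6a2 and Col6a1 are next to each other among protein-coding genes of mouse chromosome 10 in RefSeq, and their promoter windows are shown because Col6a2 was called and Col6a1 separated DM_AngIV from both other groups. Both windows are on the minus strand of GRCm38.p6, at chr10:76623355-76623654 for Col6a2, the first of 2 windows listed for that gene, and at chr10:76725995-76726294 for Col6a1. Capitals mark GGGCGG in Col6a2, which is read here as its reverse complement in 3 places of which a pair overlap, and TGANTCA in Col6a1. The 5 motifs searched on both strands were the CCAAT box, the GC box core GGGCGG, the TATA box as TATAAA, the Smad-binding core CAGACA and the AP-1 motif TGANTCA, and these windows share none.
Col6a2: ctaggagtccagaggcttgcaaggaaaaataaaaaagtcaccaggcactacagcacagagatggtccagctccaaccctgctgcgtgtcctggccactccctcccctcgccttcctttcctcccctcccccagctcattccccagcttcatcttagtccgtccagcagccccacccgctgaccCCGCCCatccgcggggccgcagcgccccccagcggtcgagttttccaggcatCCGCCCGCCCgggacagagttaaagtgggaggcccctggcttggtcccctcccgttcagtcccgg
Col6a1: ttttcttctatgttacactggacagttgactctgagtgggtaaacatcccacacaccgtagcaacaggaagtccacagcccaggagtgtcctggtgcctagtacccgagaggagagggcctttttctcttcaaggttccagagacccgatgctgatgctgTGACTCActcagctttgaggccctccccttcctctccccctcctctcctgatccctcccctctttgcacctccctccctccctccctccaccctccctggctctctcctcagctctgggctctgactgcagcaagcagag

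Basement membrane chains had a median of −0.35 in DM_AngIV against NC, without a call, and it was −0.16 without NC replicate 1 and −0.19 with the atrial covariate. Col4a1 and Col4a2 encode the chains of the type IV collagen found in nearly all basement membranes. Col4a1 was at 6.29, 5.92, 6.00 and 5.64 in DM_AngIV arrays, 6.23, 6.13, 6.24 and 6.29 in DM arrays, and 6.38, 6.49, 6.22 and 6.17 in NC arrays. Col4a2 was at 6.52, 6.09, 5.99 and 5.76 in DM_AngIV arrays, 6.61, 6.19, 6.52 and 6.30 in DM arrays, and 6.19, 6.48, 6.53 and 6.77 in NC arrays. In both genes DM_AngIV replicates 2, 3 and 4 were below all DM and NC arrays and replicate 1 was among them. The differences in DM_AngIV against NC were −0.35 for Col4a1 (limma adjusted p = 0.218) and −0.41 for Col4a2 (limma adjusted p = 0.256). Against DM they were −0.26 and −0.32 in the same order (adjusted p = 0.679 for each), and in DM against NC they were −0.09 for both genes (limma adjusted p = 0.891 and 0.933).

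Col4a1 and Col4a2 start 21 bases apart on opposite strands, a known bidirectional arrangement, so their RefSeq windows overlap, and they are shown for that reason. The windows lie at chr8:11312777-11313076 on the minus strand for Col4a1 and at chr8:11312555-11312854 on the plus strand for Col4a2 (GRCm38.p6). Capitals mark the 78 bases that the windows share, which read as reverse complements of each other.
Col4a1: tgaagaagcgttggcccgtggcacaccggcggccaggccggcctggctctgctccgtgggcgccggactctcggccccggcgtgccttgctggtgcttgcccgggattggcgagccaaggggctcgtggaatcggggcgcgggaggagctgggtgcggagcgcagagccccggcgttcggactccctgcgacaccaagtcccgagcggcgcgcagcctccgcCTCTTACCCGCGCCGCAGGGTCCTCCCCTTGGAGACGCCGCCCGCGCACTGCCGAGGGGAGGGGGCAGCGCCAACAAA
Col4a2: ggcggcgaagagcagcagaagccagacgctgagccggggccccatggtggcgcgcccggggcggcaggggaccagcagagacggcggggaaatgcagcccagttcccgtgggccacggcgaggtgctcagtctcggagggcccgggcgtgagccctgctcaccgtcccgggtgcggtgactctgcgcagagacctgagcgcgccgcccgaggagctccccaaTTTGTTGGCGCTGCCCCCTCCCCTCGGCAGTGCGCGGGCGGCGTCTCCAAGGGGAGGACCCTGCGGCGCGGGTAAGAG

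Col15a1 encodes a collagen bound to basement membranes of muscle and capillaries. It was at 5.65, 5.63, 4.87 and 4.63 in DM_AngIV arrays, 5.33, 5.51, 5.71 and 5.96 in DM arrays, and 6.07, 6.08, 6.01 and 5.84 in NC arrays. All DM_AngIV arrays were below all NC arrays, and replicates 3 and 4 of DM_AngIV were below background, so 2 of 4 arrays of that group measured it. The difference in DM_AngIV against NC was −0.80 ± 0.21 (SE, limma adjusted p = 0.0761), and with DM_AngIV replicate 1 left out it was −0.95 and past the threshold (0.0469, against a range of 0.0324 to 0.310 over 23 alternatives). Col15a1 had −0.43 in DM_AngIV against DM (limma adjusted p = 0.677) and −0.37 in DM against NC (0.634).

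Col4a4 and Col4a6 had similar means in the 3 groups, and Col18a1 varied most among the NC arrays. Col4a4, a chain of the type IV network best known from the kidney, averaged 5.20 ± 0.14 in DM_AngIV, 5.31 ± 0.09 in DM and 5.23 ± 0.24 in NC arrays. Col4a6 averaged 4.73 ± 0.27 in DM_AngIV, 4.73 ± 0.19 in DM and 4.74 ± 0.45 in NC arrays. Col18a1, from whose protein the vessel growth inhibitor endostatin is cut, was at 4.86, 4.75, 4.94 and 5.15 in DM_AngIV arrays, 4.91, 5.02, 4.91 and 4.99 in DM arrays, and 6.30, 4.35, 5.47 and 4.95 in NC arrays. The NC arrays held both the highest and the lowest Col18a1 value of the series, and the difference of −0.34 in DM_AngIV against NC had a 95% confidence interval of −0.93 to 0.25 (limma adjusted p = 0.622). Its direction turned without the arrays with atrial signal (0.27, adjusted p = 0.560) and with the atrial covariate (0.12, 0.882), and was near 0 without NC replicate 1 (0.0028, 0.997).

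The 17 remaining collagens, which include network, fibril-associated and membrane-spanning types, had a median of −0.08 in DM_AngIV against NC and 0 genes at an unadjusted p below 0.05. That median was −0.05 without NC replicate 1 or DM_AngIV replicate 1, −0.03 without NC replicate 2, and −0.13 without NC replicate 3, DM_AngIV replicate 3 or the arrays with atrial signal. Col8a1 and Col8a2, the chains of the vessel wall collagen type VIII, had −0.08 and −0.15 there (limma adjusted p = 0.870 and 0.529). Col16a1, a fibril-associated collagen, averaged 6.32 ± 0.23 in DM_AngIV, 6.57 ± 0.11 in DM and 6.58 ± 0.29 in NC arrays, with −0.25 in DM_AngIV against DM (limma adjusted p = 0.728) and −0.26 in DM_AngIV against NC (0.449). Col23a1, a membrane-spanning collagen, was among the few with a positive difference, 0.17 in DM_AngIV against NC (limma adjusted p = 0.459) and 0.15 in DM against NC (0.691). Col20a1 had −0.16 in DM_AngIV against DM (limma adjusted p = 0.794), and Col22a1, found at junctions of muscle and tendon, had −0.18 in DM against NC (0.705).

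**Figure D2:**
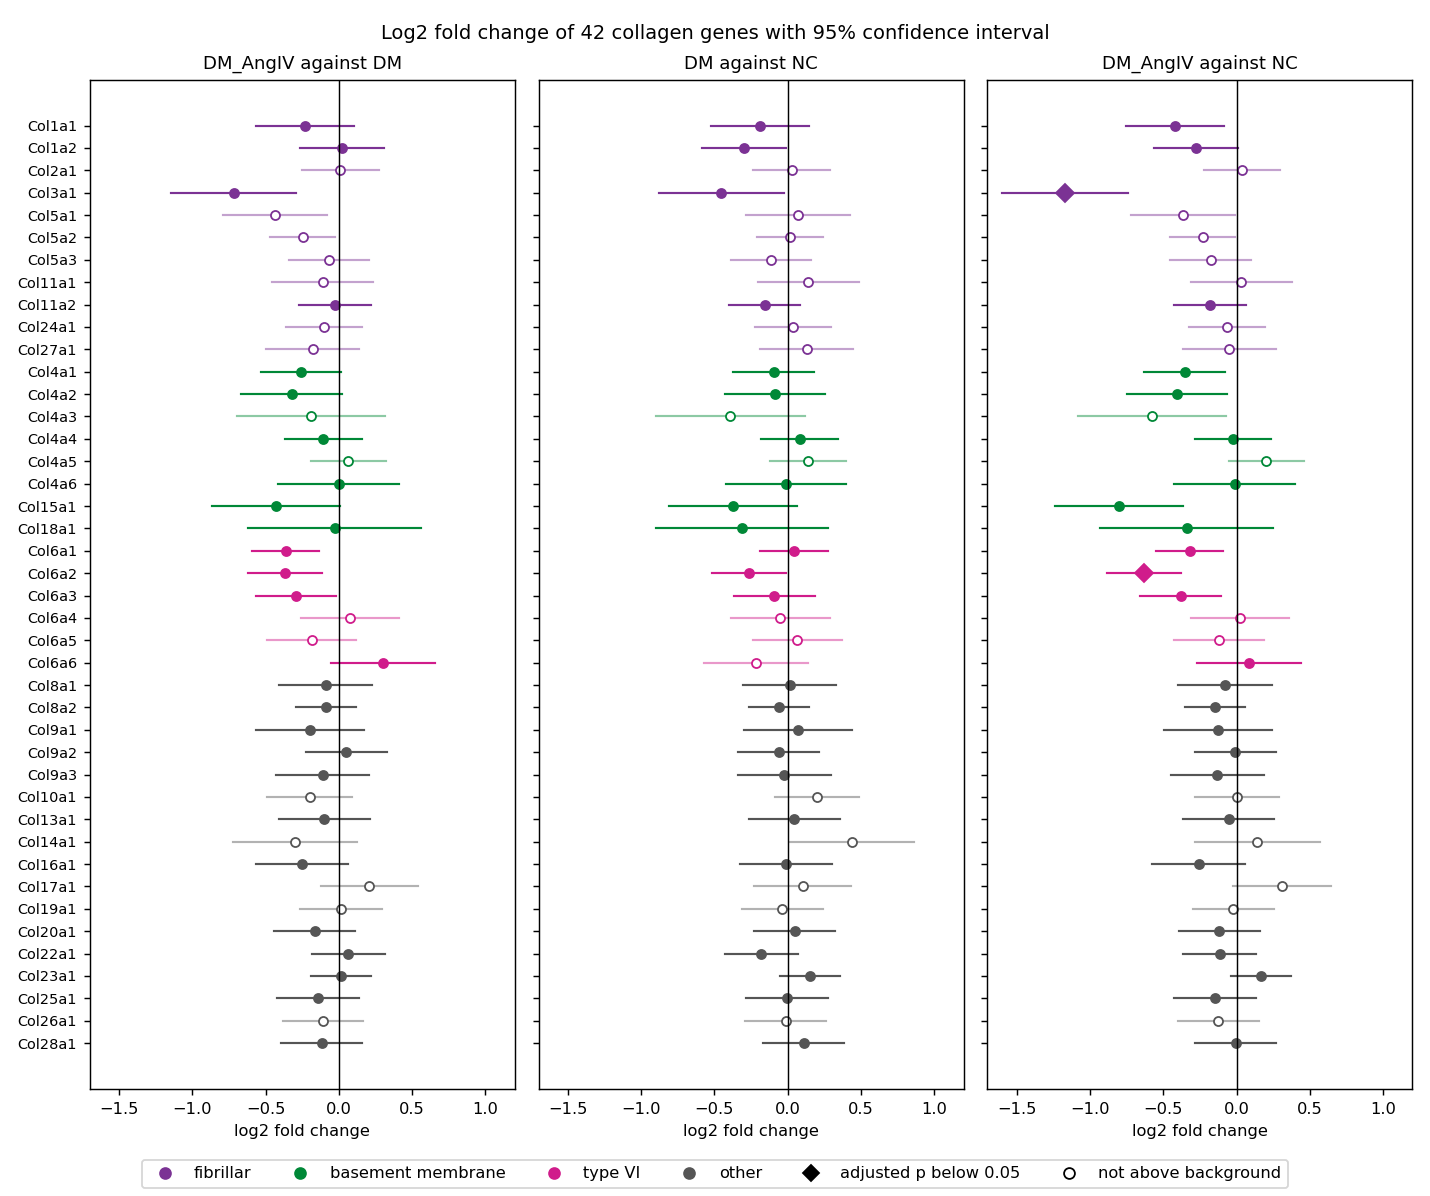
Log2 fold change (horizontal axis) of the 42 collagen genes (rows, coloured by class) in DM_AngIV against DM, DM against NC and DM_AngIV against NC, with 95% confidence intervals. Diamonds mark an adjusted p below 0.05 and open circles genes not above background in either group compared. The diamonds are Col3a1 at −1.17 and Col6a2 at −0.63, both in DM_AngIV against NC.

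Between the diabetic groups, the limma test called 0 of 19505 genes, 0%, and so 0 of 42 collagens. At an unadjusted p below 0.05, 6 collagens were lower in DM_AngIV than in DM and 0 higher, against 3.5% and 3.98% of all genes. These 6 were Col3a1, Col6a1, Col6a2 and Col6a3, with Col5a1 and Col5a2, which were not above background. A negative difference was found in 32 of 42 collagens, against 50.2% of all genes, and the median was −0.11, against −0.00 over all genes. By class the medians were −0.11 for fibrillar, −0.15 for basement membrane, −0.24 for type VI and −0.11 for other collagens. The basement membrane median ranged from −0.26 without DM_AngIV replicate 1 to −0.04 without DM_AngIV replicate 3, with −0.10 without DM_AngIV replicate 4 and −0.09 with the atrial covariate. The fibrillar median was −0.19 without DM_AngIV replicate 1 and −0.17 without DM replicate 4. Without the arrays with atrial signal the type VI median was −0.37 and that of other collagens −0.03, and the last was −0.05 with the atrial covariate and −0.07 without DM replicate 4. In 2 collagens, Col6a1 and the dim Col5a1, all DM_AngIV arrays were below all DM arrays, a pattern found in 2.2% of all genes, and the opposite pattern was found in 0 collagens and 2.81% of all genes.

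No collagen passed the adjusted threshold in DM hearts against NC hearts. The limma test called 3 of 19505 genes, 0.0154%, and 0 of 42 collagens. At an unadjusted p below 0.05, Col1a2, Col3a1 and Col6a2 were lower, against 4.26% of all genes, and Col14a1, which was not above background, was higher, against 4.69%. The median was −0.01 and 23 of 42 collagens had a negative difference, against 50.2% of all genes. Col6a2 was the 1 collagen with all DM arrays below all NC arrays, a pattern found in 2.09% of all genes, and 0 collagens had the opposite pattern, found in 2.45% of all genes. With the 5 atrial arrays omitted, 1 DM array was left and the median was −0.08. A missed threshold does not show that levels were alike.

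**Figure D3:**
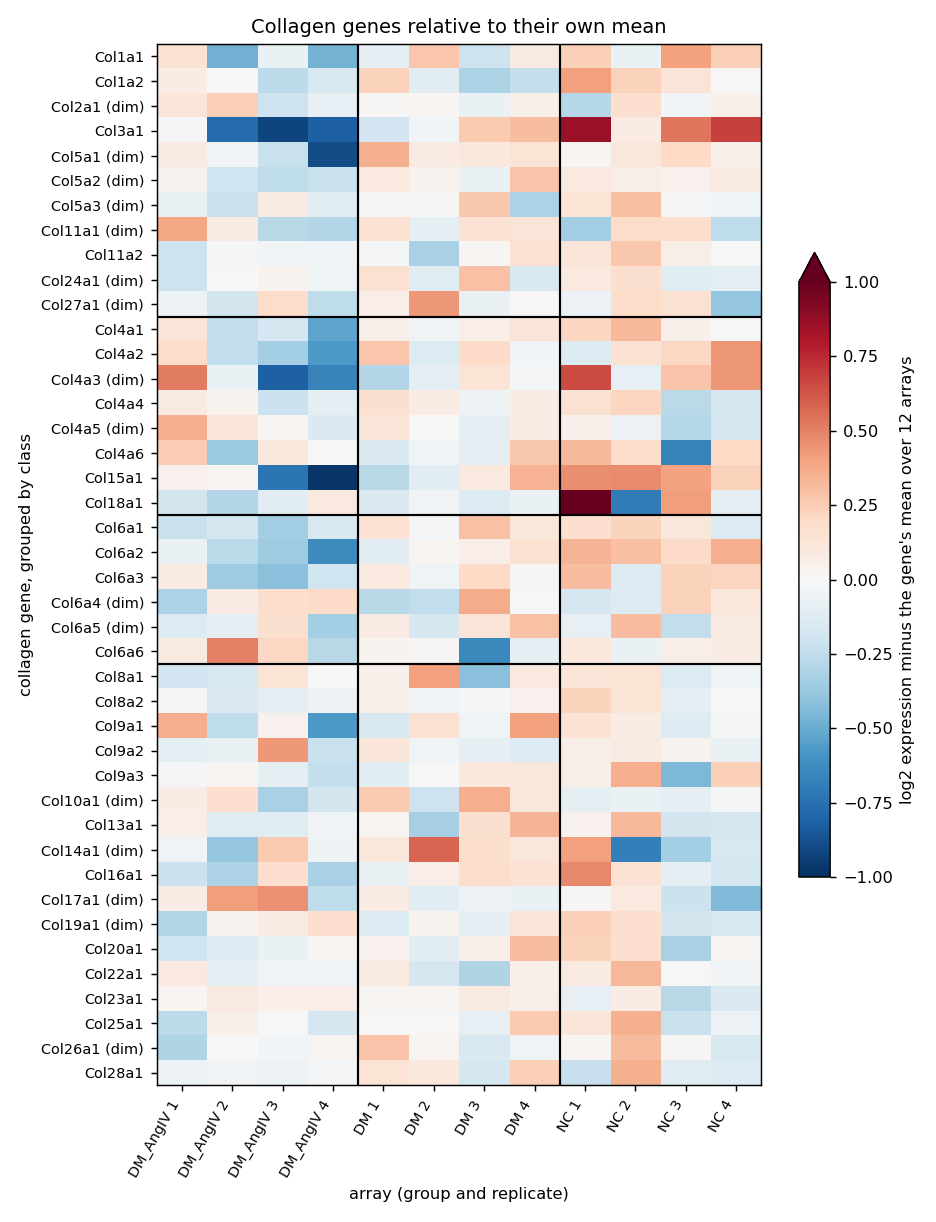
Log2 expression of the 42 collagen genes (rows, divided by class from fibrillar at the top through basement membrane and type VI to other) in the 12 arrays (columns, DM_AngIV, DM and NC from left to right), each minus the mean of the gene over all arrays. Genes not above background on any array are marked dim. Blue is below and red above the gene's mean. Col3a1 is blue in DM_AngIV replicates 2, 3 and 4, and Col18a1 stands out in NC replicate 1 at 6.30.

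The arrays of the DM_AngIV group were not uniform across the family. Averaged over the 4 fibrillar chains above background, as the deviation from each gene's own mean, they were at −0.00, −0.31, −0.32 and −0.37, against −0.02, −0.05, −0.06 and 0.08 in DM and 0.41, 0.13, 0.28 and 0.23 in NC (replicates 1 to 4). Replicate 1 of DM_AngIV thus lay inside the DM range, and all 4 NC arrays were above all others. Over all 11 fibrillar chains NC and DM overlapped, with 0.03 in NC replicate 4 and 0.07 in DM replicate 1. The 2 NC arrays without atrial signal were replicates 2 and 4. The 4 type VI chains above background averaged −0.03, −0.07, −0.23 and −0.32 in DM_AngIV, 0.04, −0.00, −0.02 and 0.05 in DM, and 0.23, 0.08, 0.15 and 0.13 in NC arrays. These ranges did not overlap, but that depended on which chains were averaged. Col6a6 is among the 4 through 1 array alone, DM_AngIV replicate 2 at 4.99, and was at 3.84 in DM replicate 3. Over all 6 type VI chains DM_AngIV and DM overlapped, with −0.05 in DM_AngIV replicate 2 and −0.07 in DM replicate 2. The 6 basement membrane chains above background averaged −0.17 ± 0.18 in DM_AngIV, 0.02 ± 0.07 in DM and 0.15 ± 0.15 in NC arrays. The 12 other collagens above background averaged −0.06 ± 0.07, 0.03 ± 0.09 and 0.03 ± 0.17 in the same order (SD, n = 4 each). Over all 8 basement membrane chains the averages were −0.15, 0.01 and 0.14, and over all 17 other collagens −0.04, 0.05 and −0.00, in that order.

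Fibroblasts were followed with 11 measured markers such as Dcn and Lum, all above background. Their mean level was 7.07 ± 0.18 in DM_AngIV, 7.19 ± 0.27 in DM and 7.13 ± 0.20 in NC arrays (SD, n = 4 each), and the ranges were 6.83 to 7.25, 6.90 to 7.49 and 6.92 to 7.38. The groups overlapped, with a median difference of −0.06 over the list in DM_AngIV against NC and −0.10 in DM_AngIV against DM, and 7 and 8 of 11 markers negative. Markers of activated fibroblasts, 10 measured of which 5 were never above background, were negative in 9 of 10 in DM_AngIV against NC with a median of −0.34 and 0 called. Their level ranged from 3.89 to 4.39 in DM_AngIV, 4.38 to 4.48 in DM and 4.21 to 5.25 in NC arrays. It was 5.25 and 4.53 in NC replicates 1 and 3, which had atrial signal, and 4.21 and 4.28 in NC replicates 2 and 4, which had none. DM_AngIV replicates 1 to 4 were at 4.35, 4.29, 4.39 and 3.89. In whole tissue, fewer cells of a type and less RNA per cell cannot be told apart.

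**Figure D4:**
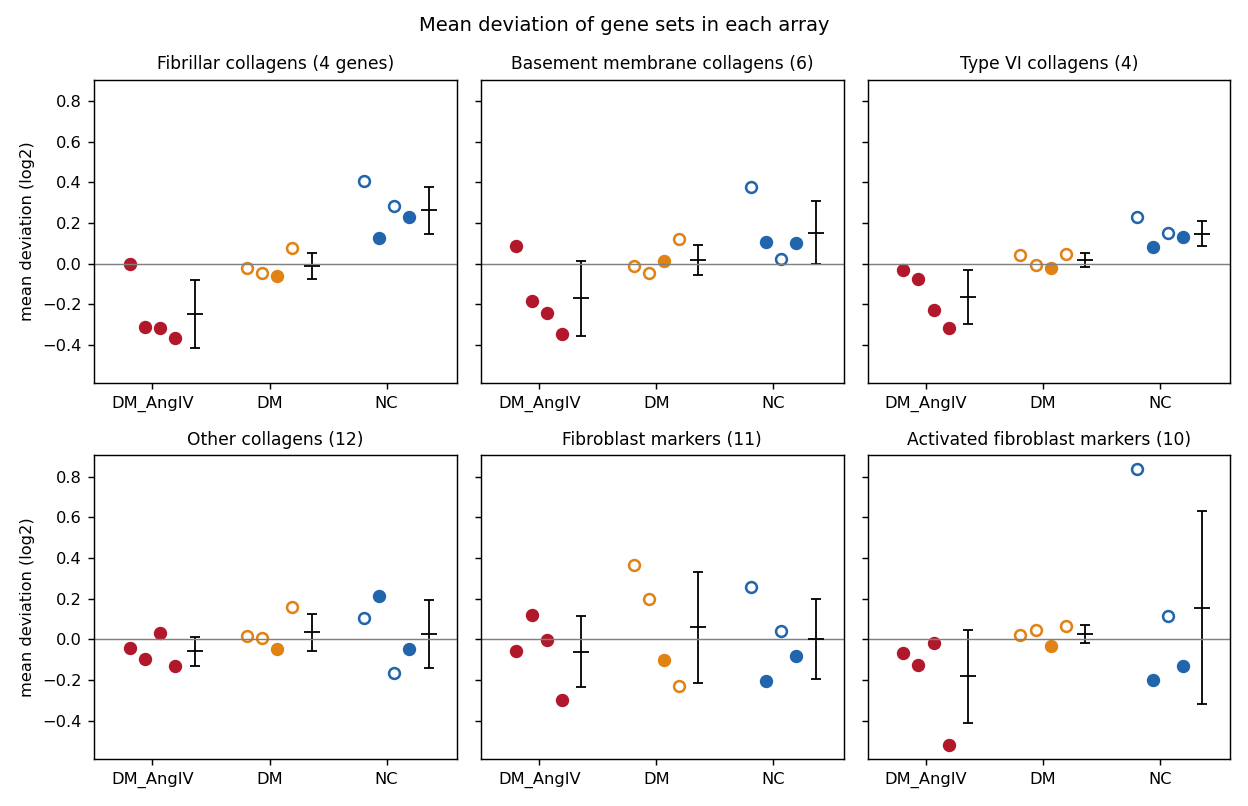
Mean deviation (log2, vertical axis) of the collagens above background in each class and of 2 fibroblast marker lists in each array, with DM_AngIV, DM and NC from left to right, the mean and SD beside each group, and open symbols for the 5 arrays with Myl7 above background. Fibrillar collagens average −0.25 in DM_AngIV, −0.01 in DM and 0.26 in NC arrays, and DM_AngIV replicate 1 lies inside the DM range. The fibroblast markers overlap between all groups.

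Other cells also differed between arrays. Atrial markers, 6 measured, averaged 5.27 ± 0.13 in DM_AngIV, 6.62 ± 1.34 in DM and 6.36 ± 1.35 in NC arrays (SD, n = 4 each). Macrophage and monocyte markers were positive in 11 of 11 both in DM_AngIV against NC, with a median of 0.32, and in DM against NC, with a median of 0.41, and their level was 5.64 to 6.08 in DM_AngIV, 5.47 to 6.52 in DM and 5.39 to 5.60 in NC arrays. Endothelial markers ranged from 7.26 to 7.62 in DM_AngIV, 7.08 to 7.64 in DM and 7.21 to 7.39 in NC arrays. Valve and cartilage markers, of which 4 of 10 were never above background, ranged from 3.88 to 4.20 in DM_AngIV, 3.98 to 4.24 in DM and 3.89 to 4.78 in NC arrays. Smooth muscle and pericyte markers ranged from 6.59 to 6.83 in DM_AngIV, 6.21 to 6.59 in DM and 6.23 to 7.34 in NC arrays. In DM_AngIV against DM, where most collagen differences were negative, 11 of 11 smooth muscle and pericyte markers were positive, with a median of 0.22. By their mean level every DM_AngIV array was above every DM array, but narrowly. The lowest DM_AngIV array was at 6.593 and the highest DM array at 6.591. No marker gene was called in any comparison. The part of these cells in the collagen differences was not tested.

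Chains of the same molecule or fibril were compared across the 12 arrays for 6 pairs in which both were above background on at least 6 arrays, with permutation p-values from 100000 resamples and Benjamini-Hochberg adjustment over the 6 pairs. Col1a1 and Col3a1, which share fibrils, had r = 0.74 (permutation p = 0.00637, adjusted 0.0354) and rho = 0.60 (permutation p = 0.0419, adjusted 0.170), and Col3a1 ranked 77 among 19504 genes by likeness to Col1a1. Col4a1 and Col4a2 had r = 0.69 (permutation p = 0.0118, adjusted 0.0354) and rho = 0.40 (permutation p = 0.199, adjusted 0.299), at rank 332. Both pairs rest in part on DM_AngIV replicates 2 and 4, the arrays farthest from the median, since r was 0.52 and 0.28 without them and no longer passed (permutation p = 0.121 and 0.431). For Col6a1 r was 0.60 with Col6a2 and 0.60 with Col6a3 (permutation p = 0.0403 and 0.0415, adjusted 0.0622 for both), and rho was 0.57 and 0.52.

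Col1a1 and Col1a2, which make up the same type I molecule, had an r of 0.31 (permutation p = 0.321, adjusted 0.339) and a rho of 0.27. Col8a1 and Col8a2 had r = 0.30 (permutation p = 0.339, adjusted 0.339) and rho = 0.23. With DM replicates 2 and 3 left out, the arrays farthest from the Col8a1 median, r was 0.62 (permutation p = 0.0556, adjusted 0.181). These correlations hold both group differences and the spread within groups. On deviations from the group means r was 0.51 for Col1a1 with Col3a1, 0.46 for Col4a1 with Col4a2, −0.13 for Col6a1 with Col6a2 and 0.09 for Col6a1 with Col6a3.

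**Figure D5:**
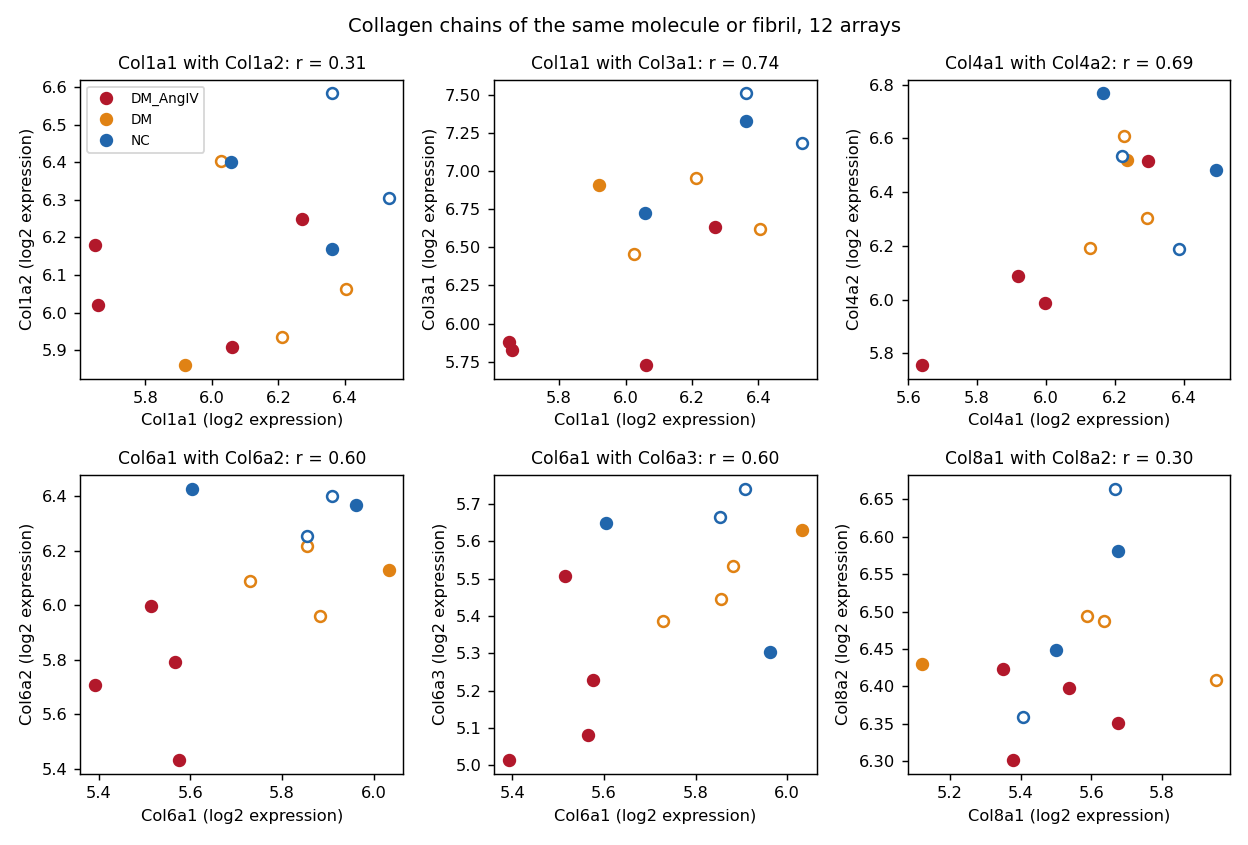
Log2 expression of 6 pairs of collagen chains, 1 point for each of the 12 arrays, coloured by group with open symbols for arrays with Myl7 above background. Pearson r stands above each panel. In the Col4a1 and Col4a2 panel DM_AngIV replicate 4 is at the lower left, at 5.64 and 5.76.

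Among genes outside the family, the 10 whose values over the 12 arrays were most like the mean of Col1a1, Col1a2 and Col3a1 were Alyref, Serpinh1, Septin4, Slc48a1, Pxdn, Nap1l3, Mgarp, Lrrc52, Nrep and Car5b, with Pearson r between 0.907 and 0.867. Of these Nap1l3, Mgarp, Lrrc52 and Car5b were not above background on any array. Within the family Col6a2 was closest, with r = 0.898 and rank 4 among all genes, followed by Col6a3 with r = 0.860 and rank 17. These ranks describe likeness over arrays that also differ by group.

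Serpinh1 encodes HSP47, the chaperone that binds newly made procollagen in the endoplasmic reticulum. Serpinh1 was at 7.22, 6.81, 6.57 and 6.63 in DM_AngIV arrays, 7.26, 6.94, 7.13 and 7.15 in DM arrays, and 7.44, 7.36, 7.65 and 7.72 in NC arrays. All DM_AngIV and all DM arrays were below all NC arrays. It fell in DM_AngIV against NC by 0.73 on the log2 scale (SE 0.14, limma adjusted p = 0.0225), to 60.1% of the NC level. The call was lost without NC replicate 3 (−0.70, adjusted p = 0.0572), NC replicate 4 (−0.68, 0.0680), DM_AngIV replicate 2 (−0.73, 0.0583), DM_AngIV replicate 3 (−0.65, 0.0813) or DM_AngIV replicate 4 (−0.68, 0.0773), without the arrays with atrial signal (−0.73, 0.182) and with the atrial covariate (−0.76, 0.0541). Its differences were −0.31 in DM_AngIV against DM (limma adjusted p = 0.660) and −0.42 in DM against NC (adjusted p = 0.374).

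Serpinh1 was the 1 gene of 17 measured for chain modification and folding that was called in DM_AngIV against NC, and 10 of the 17 had a negative value. Crtap, a subunit of the complex that hydroxylates proline in collagen chains, had −0.46 there (limma adjusted p = 0.0852), −0.09 in DM_AngIV against DM (0.891) and −0.37 in DM against NC (0.373). Mia3, needed for export of procollagen from the endoplasmic reticulum, had 0.24 in DM_AngIV against DM (limma adjusted p = 0.660). The median over the list was −0.01 in DM_AngIV against NC, equal at 2 decimals to that of all genes.

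Of 20 genes for procollagen cleavage, assembly and crosslinking, 0 were called in DM_AngIV against NC, and 13 were negative with a median of −0.06. Thbs2, a matrix glycoprotein that affects fibril structure, had 0.96 in DM_AngIV against NC (limma adjusted p = 0.0531), and passed 0.05 in 8 of 23 alternatives, among them the omission of the arrays with atrial signal (1.13, 0.0487), the atrial covariate (1.16, 0.0453) and the omission of DM replicate 1 (0.96, 0.0227) or DM replicate 4 (0.96, 0.0166). Pcolce2, an enhancer of procollagen cleavage, had 0.55 (limma adjusted p = 0.0761) and passed 0.05 in 4 of 23, among them the atrial covariate (0.74, 0.0255). Loxl1, an enzyme of crosslinking in elastic fibres, averaged 5.65 ± 0.23 in DM_AngIV, 6.17 ± 0.28 in DM and 6.14 ± 0.08 in NC arrays, and all DM_AngIV arrays lay below all others. Its values were not called (limma adjusted p = 0.511 against DM and 0.112 against NC). Sparc, which binds procollagen, had −0.36 in DM_AngIV against DM (limma adjusted p = 0.617).

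Among 17 genes of collagen breakdown and its inhibitors, Timp3, a matrix-bound inhibitor of metalloproteinases, rose in DM_AngIV against NC. It was at 7.54, 7.62, 7.55 and 7.61 in DM_AngIV arrays, 7.56, 7.24, 6.64 and 6.60 in DM arrays, and 6.98, 6.18, 6.44 and 6.37 in NC arrays. The DM_AngIV arrays were close together and above all NC arrays, and DM replicate 1 was as high as they were. The log2 fold change was 1.09 ± 0.20 (SE, limma adjusted p = 0.0189), lost without NC replicate 2 (0.98, adjusted p = 0.0670), NC replicate 4 (1.04, 0.0569), DM_AngIV replicate 2 (1.07, 0.0531), DM_AngIV replicate 3 (1.10, 0.0508) or DM_AngIV replicate 4 (1.08, 0.0553). Without the arrays with atrial signal Timp3 was at 1.30 and still called (limma adjusted p = 0.00695, in a range of 0.00263 to 0.0670 over 23 alternatives). Timp4, another inhibitor of this family, had 1.03 in DM_AngIV against NC (limma adjusted p = 0.126), and with the atrial covariate it was 1.57 and past the threshold (0.0126, in a range of 0.0126 to 0.289 over 23 alternatives). Mmp11 had −0.28 in DM_AngIV against DM (0.700), and the median of the list was −0.02 in DM_AngIV against NC.

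In the list of 19 TGF-beta and fibrosis response genes, Tgfbr3, the co-receptor betaglycan, rose in DM_AngIV against NC by 0.57 ± 0.13 (SE, limma adjusted p = 0.0433). Its values were 7.26, 7.71, 7.55 and 7.43 in DM_AngIV arrays, 7.51, 7.28, 7.07 and 7.01 in DM arrays, and 6.86, 7.03, 6.88 and 6.89 in NC arrays. All DM_AngIV arrays were above all NC arrays, but the call was lost in 13 of 23 alternatives, among them the omission of NC replicate 1, 2, 3 or 4, of DM replicate 2 or 3, or of DM_AngIV replicate 2, 3 or 4, with values between 0.50 and 0.61 and adjusted p-values between 0.0516 and 0.133. It was also lost without the arrays with atrial signal (0.53, limma adjusted p = 0.205), with the atrial covariate (0.60, 0.0826), with the replicate block (0.57, 0.0667) and with quantile normalization (0.53, 0.0630). Tgfb1, the best known inducer of collagen genes, had 0.06 in DM_AngIV against NC (limma adjusted p = 0.883) and 0.13 in DM against NC (0.826). Ccn2, a common fibrosis marker, had 0.53 in DM_AngIV against NC (limma adjusted p = 0.510) and 0.58 in DM against NC (0.666). Tgfbr1 had 0.48 and Tgfb2 had −0.46 in DM_AngIV against DM (limma adjusted p = 0.501 and 0.585).

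Of 8 measured collagen receptor genes, 0 were called and 5 were never above background. Ddr2, the receptor kinase for fibrillar collagen on fibroblasts, had −0.17 in DM_AngIV against DM (limma adjusted p = 0.813), and Adgrg1, a receptor for type III collagen, had 0.67 in DM_AngIV against NC (0.118) and 0.55 in DM against NC (0.422). In DM_AngIV against DM and in DM against NC, 0 genes of these 5 process lists were called by limma.

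RefSeq promoter windows were available for 34 of the 42 collagen genes, 37 windows in all. GGGCGG, the core of the GC box, was found on either strand in 59.5% of collagen windows, against 35.7% of all 32851 windows. CCAAT was in 32.4% of collagen windows and 37.4% of all, TATAAA in 13.5% and 13.6%, CAGACA in 21.6% and 21% in the same order, and TGANTCA in 2.70% and 7.81%. The median GC content was 60% in collagen windows and 52.7% in all, and GGGCGG consists of G and C alone. A match is a description of the sequence and not a site of binding. Col3a1 and Col6a2, the called genes, share none of the 5 motifs in these windows.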

How the data were processed

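Myocardial RNA (6 µg total RNA per the labels) of 12 mice was measured on single-colour arrays. The authors deposited log2 expression values made by robust multi-array average (RMA), per the submitters' processing notes, which corrects background, gives arrays a common distribution and summarises probes. The version and annotation of that step are not stated in the labels. RMA can shrink differences of dim genes, and only new scalings of the deposited values could be tried. Of 29129 probe sets, 19572 had 1 gene symbol, and the highest-mean probe set per gene left 19505 genes. The number of arrays limits the precision.

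A linear model with 1 mean per group over all 12 arrays was fitted to all 19505 genes in limma 3.58.1 (lmFit, eBayes; R 4.3.3). Tests were two-sided, Benjamini-Hochberg adjusted over all genes, and called at 0.05. The test was checked on simulated data. Labels number the mice within groups, and p-values measure the spread between these mice. Members, classes, lists and tests were chosen with earlier results of these data known, so no list was tested. Named genes were all called collagens, a set of main cardiac collagens above background, the 2 members per class and comparison and the 2 genes per process list and comparison with the smallest unadjusted p, Myl7, Serpinh1, Tgfb1 and Ccn2, and the 10 genes most like the mean of Col1a1, Col1a2 and Col3a1. Genes named outside this rule complete a count or were chosen after their values were seen. Alternatives covered a replicate block, fits of the compared arrays alone, probe set rule, dim filter, scaling, array weights, variance prior, atrial signal, threshold and each array left out. Permutation tests used SciPy 1.17.1 and figures matplotlib 3.10.9 (Python 3.11.15). Promoter windows and gene order came from RefSeq tables of GRCm38.p6. Further collagen genes without a named probe set were not analysed here.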

Additional observations from a re-analysis of the deposited data

Results flagged for a closer look

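In the DM_AngIV group, Col3a1 was highest in replicate 1, at 6.63 on the log2 scale, while the other 3 arrays were at 5.73 to 5.88, and the gap was 0.836 of the range of the group. In the NC group, Col4a6 was lowest in replicate 3, at 4.07, with the other 3 arrays at 4.91 to 5.05 and a gap of 0.854 of the range. Both gaps exceeded the 95% critical value of Dixon's test for 4 samples. In all, 66 groups of 4 arrays were examined, from 18 named collagens and 4 classes in each treatment group, and chance alone sets apart about 1 in 20 such groups.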

How the results depend on the processing

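With 4 mice per group the collagen counts were sensitive to single arrays. In DM_AngIV against NC the 2 called collagens became 1 (Col3a1) with the replicate block and 0 without the arrays with atrial signal. They ranged from 1 to 3 with 1 array left out, 1 without NC replicate 1, 2 or 4 or DM_AngIV replicate 3 or 4, and 3 without DM_AngIV replicate 1. The count was 3, with Col15a1, after the dim filter, with the trended prior and at a threshold of 0.1. The calls over all genes, 198, were 115 with the block, 50 without the atrial arrays, 567 with the dim filter, 514 with the trended prior and 81 to 302 with 1 array left out. The 3 genes called in DM against NC were 20 with the dim filter, 28 with the trended prior, 0 without the atrial arrays and up to 30 with 1 array left out (DM replicate 4), and the 0 called in DM_AngIV against DM were up to 5 (without DM_AngIV replicate 2). The collagen median in DM against NC was −0.081 without the atrial arrays and −0.061 to 0.048 with 1 array left out, and that in DM_AngIV against NC was −0.20 to −0.039 with 1 array left out. In DM_AngIV against DM and in DM against NC, 0 collagens were called under every alternative run. Replicate numbers did not pair the mice, with same-number correlations from −0.10 to 0.17 and 2 of 12 arrays closest to their own number.

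For chain pairs, r on deviations from the group means was −0.00041 for Col1a1 with Col1a2, 0.51 for Col1a1 with Col3a1, 0.46 for Col4a1 with Col4a2, −0.13 for Col6a1 with Col6a2 and 0.094 for Col6a1 with Col6a3. Without the atrial arrays r was 0.69 for Col1a1 with Col3a1 and 0.82 for Col4a1 with Col4a2, and without the 2 arrays farthest from the median 0.52 and 0.28, none past the adjusted threshold, with 7 and 10 arrays. The cause of these shifts was not tested.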
